A study of Mus musculus with 14 samples.

Results

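Members of the basic helix-loop-helix (bHLH) family that specify muscle and other mesodermal lineages were examined for sites of H3K27me3 in immortalized mouse embryo fibroblasts (iMEF). The 10 genes were Myod1, Myf5, Myf6 and Myog of the myogenic group and Hand1, Hand2, Tcf15, Tcf21, Msc and Scx of the mesodermal group, out of 21938 protein-coding genes on the assembled chromosomes. They were taken by name, as regulators of fates that mesenchymal cells can adopt other than that of a fibroblast. For each gene, all sites of a deposited H3K27me3 list were collected that overlapped ± 1 kb of its transcription start sites (TSSs), its body, or 50 kb on either side of it. All positions are those of GRCm38.

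The cells depend on FKBP-HA2-ASH2L, a human ASH2L protein fused to an FKBP tag and expressed from a lentivirus. Their endogenous Ash2l alleles were inactivated through deletion of exon 4 by a CAGG-Cre-ER transgene, and the lines are single clones. For the ChIP-seq of histone marks, the paper names a single clone, NG3. All groups share this background, including the untreated control that the titles call WT. The treated groups received dTAG-13, a PROTAC that triggers degradation of the tagged protein, for 30 min, 2 h, 4 h, 8 h or 16 h. ChIP-seq of H3K27me3 comprised 12 libraries, 2 for each of the 6 groups, and there were 2 input libraries. The list combines the sites of all samples and gives only a chromosome, a start and an end. It carries no value per library, so the groups were not compared, replicate error could not be given and no test was run. The depth behind each site is unknown, and a gene without a site is not shown to lack the mark.

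bHLH factors bind DNA as dimers with ubiquitous E proteins at a short motif called the E-box. In the embryo, Myod1 and Myf5 commit cells to skeletal muscle, and Myog drives their terminal differentiation. H3K27me3 is set by Polycomb repressive complex 2 and is known to lie over silent developmental regulators, often as domains that extend far beyond the promoter. Fibroblasts arise from mesoderm and can be turned into muscle by Myod1, which makes the state of these genes in fibroblasts a classical question.

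Of the 10 genes, 6 had an H3K27me3 site within 1 kb of a TSS, namely Myod1, Hand1, Hand2, Tcf15, Tcf21 and Msc. Among all protein-coding genes this was the case for 31.5%. A site of at least 2 kb lay there for 5 members, compared with 16.1% of all genes, and a site of at least 10 kb for 3 members, compared with 3.82%. The ± 1 kb window was covered in full for Myod1, Hand2, Tcf15, Tcf21 and Msc, compared with 5.44% of all genes. In the gene body, 7 members had a site (46.7% of all genes), and the same 7 had sites in the 50 kb flanks (85.4% of all genes). The remaining 3, Myf5, Myf6 and Scx, had no site at all within 50 kb, which applied to 12.0% of all genes. The median covered share of the window was 69.1% over the 10 members and 0% over all genes, and that of the gene with its flanks was 20.1% and 3.81%, respectively.

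**Figure D1:**
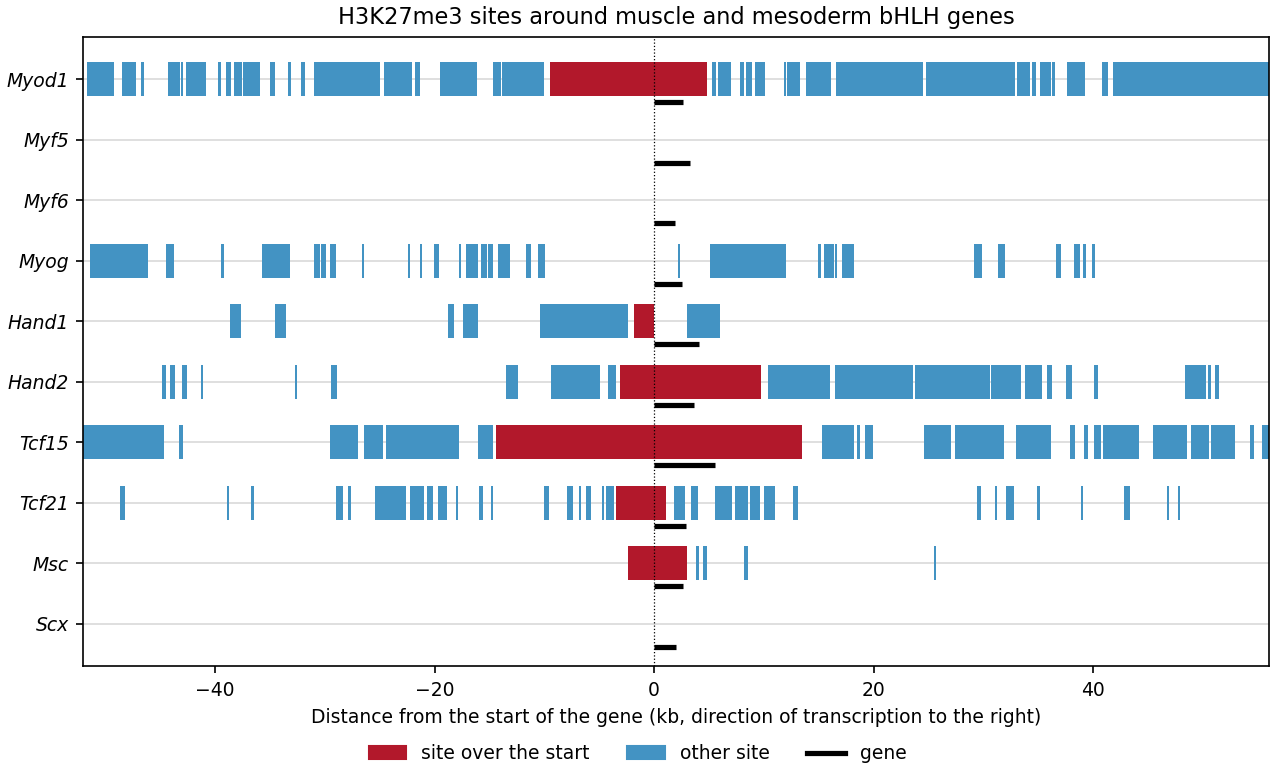
H3K27me3 sites (boxes) around each gene, plotted by distance from its start in kb along the direction of transcription, with the gene as a black bar and boxes cut at the edges of the plot. Sites over the start are red, other sites blue. Myod1, Hand2 and Tcf15 lie inside sites of 12.9 to 27.9 kb, whereas Myf5, Myf6 and Scx have no site in the range shown.

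Upstream sequences are shown for members whose ± 1 kb window was covered in full and for members without a site there. The RefSeq promoters of GRCm38.p6, from 250 bases before to 50 bases after a start, matched 4 of the 10 genes. Myod1, Myf6, Hand1, Tcf15, Msc and Scx were not matched. The promoters of Hand2 (chr8:57320733-57321032, plus strand) and Tcf21 (chr10:22820094-22820393, minus strand) were covered by a site over 100% of their length. Those of Myog (chr1:134289754-134290053, plus strand) and Myf5 (chr10:107486085-107486384, minus strand) were covered over 0%. Capitals mark E-boxes, searched as CANNTG, which reads the same on both strands.
Hand2: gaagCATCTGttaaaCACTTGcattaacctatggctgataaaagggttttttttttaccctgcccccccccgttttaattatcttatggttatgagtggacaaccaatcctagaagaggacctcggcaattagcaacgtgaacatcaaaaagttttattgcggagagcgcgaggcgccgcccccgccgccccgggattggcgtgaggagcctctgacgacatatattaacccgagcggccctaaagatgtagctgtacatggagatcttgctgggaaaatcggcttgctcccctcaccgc
Tcf21: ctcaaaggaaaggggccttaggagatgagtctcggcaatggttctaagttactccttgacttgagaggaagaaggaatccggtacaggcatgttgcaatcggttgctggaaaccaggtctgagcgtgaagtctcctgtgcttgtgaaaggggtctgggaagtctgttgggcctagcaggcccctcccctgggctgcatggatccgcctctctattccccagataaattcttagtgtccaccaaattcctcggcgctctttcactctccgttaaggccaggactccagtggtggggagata
Myog: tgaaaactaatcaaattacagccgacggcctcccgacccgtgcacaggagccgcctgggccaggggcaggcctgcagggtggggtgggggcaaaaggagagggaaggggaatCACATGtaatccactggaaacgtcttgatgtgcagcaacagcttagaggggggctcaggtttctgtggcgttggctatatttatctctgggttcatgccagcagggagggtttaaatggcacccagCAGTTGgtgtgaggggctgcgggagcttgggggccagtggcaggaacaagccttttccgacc
Myf5: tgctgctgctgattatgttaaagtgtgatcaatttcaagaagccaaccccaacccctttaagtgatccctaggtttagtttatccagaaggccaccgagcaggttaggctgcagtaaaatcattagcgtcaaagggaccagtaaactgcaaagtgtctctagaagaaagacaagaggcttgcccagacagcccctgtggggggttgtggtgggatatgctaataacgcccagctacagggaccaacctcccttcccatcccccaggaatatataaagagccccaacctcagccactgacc

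The Hand2 promoter held 2 E-boxes and 17 CpGs, and that of Tcf21 held 0 E-boxes and 8 CpGs. The Myog promoter held 2 E-boxes and 9 CpGs, and that of Myf5 held 0 E-boxes and 3 CpGs. Of 27025 RefSeq promoters of this length, 72.1% had at least 1 E-box, and the median number of CpGs was 7. The variant CAGCTG, a form of the E-box that MyoD prefers, was in 16.1% of all promoters and in none of these 4. The number of E-boxes was thus the same in Hand2, which was covered, and in Myog, which was not. A match of letters describes the sequence only.

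Among the myogenic factors, Myod1 stood apart from Myf5, Myf6 and Myog. Sites covered 8.97% of chromosome 7 (Myod1), 3.99% of chromosome 10 (Myf5, Myf6) and 4.87% of chromosome 1 (Myog). Myod1 (chromosome 7, 46376474 to 46379099, plus strand) lay within a site of 14344 bp at 46366969 to 46381312. This site reached from 9.51 kb upstream to 4.84 kb downstream of the start and so covered 100% of the window and of the 2626 bp gene. It was not isolated. In the gene and its flanks, 37 sites covered 79.7 of 102.6 kb, or 77.6%. With these flanks of 50 kb, this was the largest share of the 10 members and rank 117 among the 21938 protein-coding genes. Coverage was high on both sides, with 72.2% of the 50 kb upstream and 81.9% of the 50 kb downstream of the start. When sites closer than 5 kb were joined, 40 sites became a single stretch of 112.6 kb at 46324843 to 46437481. It also held the start of Kcnc1, which encodes a voltage-gated potassium channel and begins 20023 bp downstream of Myod1. That start lay under a separate site of 7873 bp at 46393072 to 46400944. Over all annotated starts of Kcnc1, the window met 2 sites, the widest of 16344 bp. With sites closer than 1 kb joined, the stretch at Myod1 measured 24.8 kb and held no other protein-coding start.

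Myf5 and Myf6 are adjacent genes on chromosome 10 (107482908 to 107486134 and 107492853 to 107494737, both minus strand), and their starts are 8603 bp apart. They share their surroundings and do not count as independent observations. Both lay in a site-free stretch of 388.8 kb at 107273275 to 107662030. The nearest site was 167.3 kb from Myf6 and 175.9 kb from Myf5, and the nearest site of at least 5 kb was more than 4 Mb away, at 4453 kb from the start of Myf5. Of the 153857 gaps between neighboring sites on the assembled chromosomes, 764 were at least as long (0.497%), while the median gap was 1218 bp. The stretch also overlapped Lin7a and Ptprq, but held no other start of a protein-coding gene. Unknown bases numbered 0 in the 50 kb around either gene, annotated repeats made up 23.3% (Myf5) and 22.1% (Myf6), and no copy of at least 99% identity was found in the 217 other sequences of the assembly. The base composition of this region was low in GC, with 38.7% around Myf5 and 38.3% around Myf6, compared with 49.7% around Myod1 and 49.4% around Myog.

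Myog (chromosome 1, 134289989 to 134292548, plus strand) had sites on either side but none at its start. The ± 1 kb window was covered over 0%, and the start lay in a site-free stretch of 12.2 kb at 134280014 to 134292185. A site of the minimum width of 200 bp, at 134292186 to 134292385, was the only site in its body, of which it covered 7.81%. In total, 30 sites covered 26.1% of the gene and its flanks, more than for 86.1% of all genes. These were mostly narrow, with a median width of 474 bp. The widest, 6952 bp at 134295093 to 134302044, began 5.10 kb downstream of the start, and another of 5271 bp lay at the outer edge of the upstream flank. Upstream and downstream coverage was similar, at 28.6% and 24.9% of 50 kb. The only other protein-coding gene that starts within the flanks, Ppfia4, had 3 narrow sites within 1 kb of its annotated starts, of which the widest was 884 bp.

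Of the mesodermal members, Tcf15 had the widest site. This factor, also called paraxis, is required for the epithelial structure of somites. Tcf15 (chromosome 2, 152143561 to 152149097, plus strand) lay near the middle of a site of 27865 bp at 152129201 to 152157065, which reached 14.4 kb upstream and 13.5 kb downstream of the start. By the width of the site at the window, it was at rank 144 of all protein-coding genes. Altogether, 22 sites covered 68.7% of the gene and its flanks. The neighbor Srxn1, which encodes sulfiredoxin and starts 38.0 kb upstream of Tcf15, had no site in its window. Joining sites closer than 5 kb gave 91.0 kb around Tcf15 with no other protein-coding start inside.

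Hand2 and Hand1 encode related factors for heart, limb and placenta, and their sites differed in extent and in position relative to the start. Hand2 (chromosome 8, 57320983 to 57324633, plus strand) lay in a site of 12911 bp at 57317842 to 57330752, which covered the window and the body in full. Coverage was asymmetric, with 23.4% of the 50 kb upstream and 73.1% of the 50 kb downstream. Downstream, the site was followed by sites of 5674, 7038 and 6841 bp with short gaps, so that joining sites closer than 1 kb gave 45.6 kb from 9 sites, 36.2 kb of it downstream. An enhancer of the VISTA collection, mm1283, which is annotated as active in the branchial arches, lies 12.1 to 13.9 kb downstream of the start. It was covered over 100% of its 1764 bp, as were 6.29% of the 620 VISTA enhancers on the assembled chromosomes, whereas 25.6% of them overlapped a site at all. No other VISTA enhancer lay within 50 kb of a member. The non-coding gene Hand2os1 overlaps Hand2 on the opposite strand. The mark carries no strand, so the site could not be assigned to either gene.

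Hand1 (chromosome 11, 57828705 to 57832818, minus strand) was the only member with a site that met its start from one side. The site of 1891 bp at 57832800 to 57834690 covered 100% of the 1 kb upstream of the start but only 1.80% of the 1 kb downstream, ending 18 bp into the gene. Including a second annotated start inside the gene, 38.1% of the window was covered. A further site of 3036 bp at 57826811 to 57829846 lay over the end of the gene, and one of 8016 bp began 2.39 kb upstream of the start. In total, 7 sites covered 16.2% of the gene and its flanks, with 27.6% of the upstream and 6.11% of the downstream 50 kb. With sites closer than 5 kb joined, these 3 sites became 16.4 kb and the window was covered in full. Sap30l, whose start is 31.2 kb downstream, had no site in its window.

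Tcf21 and Msc are close relatives that act in epicardium, kidney and head muscle precursors, and both had sites that covered the window but ended near the gene. Tcf21 (chromosome 10, 22817281 to 22820174, minus strand) had a site of 4620 bp at 22819060 to 22823679, from 3.50 kb upstream to 1.11 kb downstream of the start. Together with a site of 999 bp near the end of the gene, it covered 73.0% of the body. In the flanks there were many narrow sites, and 34 sites with a median width of 480 bp covered 24.1% of the gene and its flanks. That share was 61.75% with sites closer than 5 kb joined. When sites under 1 kb were dropped, it was 11.1%, and 38.5% of the body was covered. The nearest site of at least 5 kb was 3456 kb away. Of the 10 regions, that of Tcf21 had the highest repeat content, 40.1%. It also had the longest stretch, 6443 bp, with a match of at least 99% identity in the 217 sequences outside the assembled chromosomes. Copies on the chromosomes themselves were not searched. Such stretches measured 1886 bp at Tcf15 and 302 bp at Myog, and their part in the listed sites was not tested.

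Msc (chromosome 1, 14753346 to 14755992, minus strand) showed the opposite surroundings. Its single site of 5329 bp at 14753039 to 14758367 contained the whole gene and extended 2.38 kb upstream of the start. Beyond it, only 4 sites of 200 to 338 bp were listed, all downstream, so that 6.25% of the gene and its flanks was covered. With sites closer than 1 kb joined, the site of Msc became 7.21 kb from 3 sites. Antisense genes overlap both loci, Gm10824 at Tcf21 and Gm9947 at Msc.

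Scx, which encodes scleraxis, a regulator of tendon cells, was the only mesodermal member without a site. It lies at chromosome 15, 76457452 to 76459458 (plus strand), inside Bop1, a gene for ribosome biogenesis on the opposite strand. The site-free stretch around it was 172.5 kb long (76342226 to 76514748), and 2646 of the gaps between sites, or 1.72%, were at least as long. Unlike the stretch around Myf5 and Myf6, it was rich in genes, with 11 protein-coding starts inside, among them those of Bop1, Hsf1, Cyc1 and Dgat1. It ended at a site of 10.9 kb, 57.3 kb from the start of Scx, which was counted as a flanking site when the flanks were set to 100 kb. The GC content of the region was 51.6%, with 0 unknown bases and no near-identical copy in other sequences of the assembly.

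**Figure D2:**
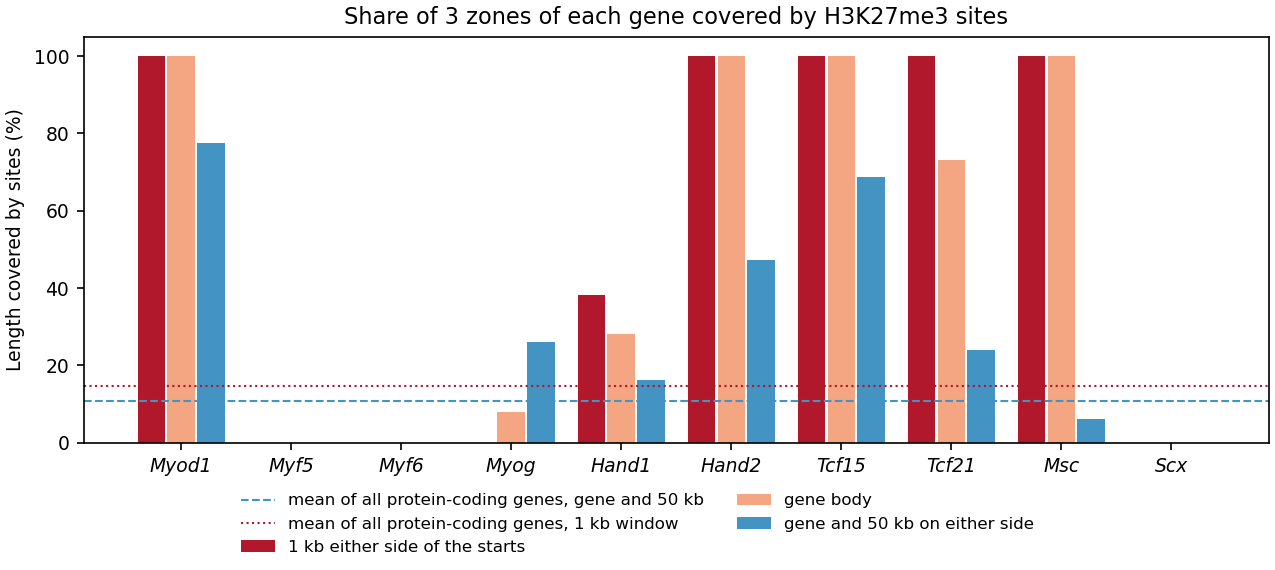
Bars give the share (%) of the length covered by H3K27me3 sites for each gene, in the window of 1 kb either side of its starts, in its body, and in the gene with 50 kb on either side. Lines give the mean over 21938 protein-coding genes, 14.7% for the window and 10.8% for the gene with its flanks. Myod1, Hand2 and Tcf15 are high in all 3 zones, Msc only in the window and body.

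The covered share of the gene and its flanks thus ordered the members from Myod1 (77.6%) through Tcf15 (68.7%), Hand2 (47.3%), Myog (26.1%), Tcf21 (24.1%), Hand1 (16.2%) and Msc (6.25%) to Myf5, Myf6 and Scx (0%). There is no replicate error, so it cannot be said which neighbors in this order differ. With flanks of 100 kb, Tcf15 (63.0%) came before Myod1 (60.8%). Window and surroundings did not follow each other in all members. Myog ranked above Tcf21, Hand1 and Msc by its surroundings, although it had no site at its start. Its place above Tcf21 depended on the settings. Tcf21 (36.15%) was above Myog (33.64%) with flanks of 20 kb. With sites closer than 1 kb joined, Tcf21 was at 31.78% and Myog at 31.07%. All genes of the group are short, from 1885 to 5537 bp with a median of 2770 bp, compared with 17425 bp over all protein-coding genes, so a site of a few kb can contain them whole.

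**Figure D3:**
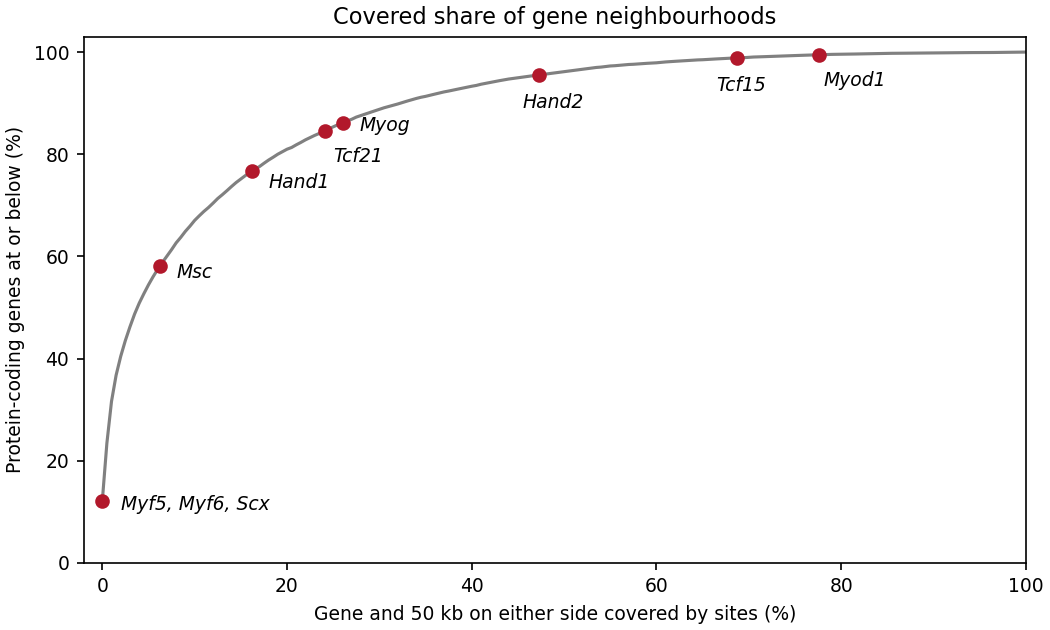
The line gives, for each covered share (%) of a gene and 50 kb on either side on the x axis, the percentage of 21938 protein-coding genes at or below it. Points mark the members. Myod1 and Tcf15 lie near the top of the distribution, and Myf5, Myf6 and Scx at 0 together with 12.0% of all genes.

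The 10 genes had 156 different sites in their bodies and flanks, with a median width of 678 bp, compared with 455 bp for the 153983 sites of the list. Of the 156, 16 were at least 5 kb wide (10.3%), compared with 3.30% of all sites. Sites of the minimum width of 200 bp made up 8.97% near the members and 12.6% in the list. The sites of at least 5 kb belonged to Myod1 (5), Hand2 (4), Tcf15 (3), Myog (2), Hand1 (1) and Msc (1).

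CpG islands are known as places where Polycomb complexes are recruited, so the sequence at the starts was compared. CpG-rich starts were those with a GC content of 50% or more and an observed/expected CpG ratio of 0.6 or more within 500 bp of them. Hand2, Tcf15, Msc and Scx met this definition, and of these 4 all but Scx had a site of at least 2 kb at the window, compared with 14.3% of all CpG-rich genes. Of the other 6, this was the case for Myod1 and Tcf21, compared with 17.5% of all other genes. Over all genes, such sites were thus slightly less frequent at CpG-rich starts than at other starts. Tcf15 had the highest ratio, 1.06, together with the widest site. The ratio of Myod1 was 0.480 although its site was the next widest, and Scx with 0.700 had none. Hand1 (0.339), Myog (0.344), Myf6 (0.379) and Myf5 (0.406) had the lowest ratios and either no site at the window or, for Hand1, one under 2 kb. The median ratio was 0.474 for the members and 0.552 for all genes.

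**Figure D4:**
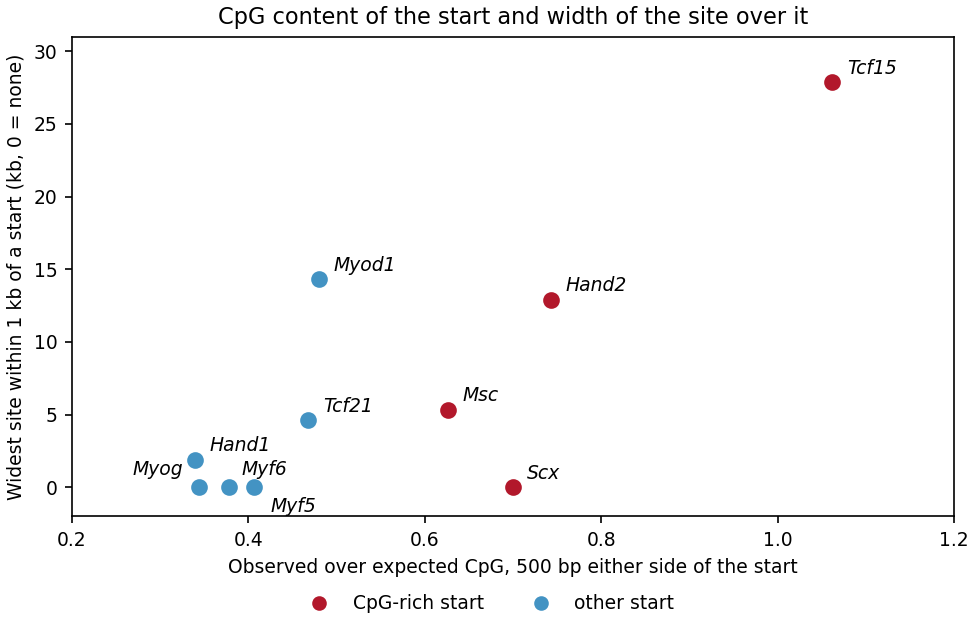
Each point is a gene, with its observed/expected CpG ratio (within 500 bp of the start) on the x axis and the width (kb) of the widest site within 1 kb of a start on the y axis, 0 where there is none. Red points are CpG-rich starts. Tcf15 is highest on both axes, while Myod1 has a site of 14.3 kb at a ratio of 0.480 and Scx no site at a ratio of 0.700.

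The same window was examined for genes that act with or downstream of the members. Among 11 bHLH partners and inhibitors, which include the E proteins Tcf3, Tcf4 and Tcf12, the Id inhibitors and Twist1 and Twist2, 3 had a site and 0 had a site of at least 2 kb (16.1% of all genes). The 3 were Bhlhe41 (548 bp), Bhlhe40 (368 bp) and Id2 (200 bp). The share with a site, 27.3%, was close to that of all genes (31.5%). Of 20 other regulators of mesoderm and muscle, 12 had a site (60% against 31.5% of all genes) and 9 had one of at least 2 kb (45% against 16.1%). Coverage of the window was 100% for 8 of them, among these Pax3 and Pax7, which act upstream of Myf5 and Myod1 in muscle progenitors and had sites of 28.2 and 43.9 kb, and the mesodermal bHLH gene Mesp1 with 8.89 kb.

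Of 32 genes for proteins of skeletal muscle, many of them targets of the myogenic factors, 21 had a site at the window (65.6% against 31.5% of all genes) and 11 had one of at least 2 kb (34.4% against 16.1%). The largest covered shares were those of Chrng, Myh3 and Myh7, with 100% each. Ckm, Actc1 and Acta1 followed, with widest sites of 11.4, 2.40 and 4.48 kb. No site was listed for 11 of the 32, among them Des, Tnnt1, Tnnt3 and Mylpf. CpG-rich starts numbered 4 of the 32, compared with 44.4% of all genes. Among 12 genes of tendon, heart and epicardium, which concern the tissues of Scx, Hand1, Hand2 and Tcf21, 8 had a site (66.7% against 31.5% of all genes) and 7 had one of at least 2 kb (58.3% against 16.1%). Nkx2-5, Tbx5 and Myl2 were covered in full, with sites of 21.2, 20.4 and 16.1 kb. Egr2, Mkx, Myl7 and Nppa had none, and the tendon gene Tnmd had a site of 504 bp.

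As the list holds no expression values, the identity of the cells could not be checked by transcripts. Of 14 genes typical of fibroblasts, 4 had a site at the window, namely Prrx1, Pdgfra, Vim and Col1a1. Their widest sites there measured between 363 and 534 bp. The share of genes with a site, 28.6%, was close to the 31.5% of all genes. A site of at least 2 kb was listed for 0 of the 14, compared with 16.1% of all genes. The median covered share of the gene and its flanks was 0.583% for these genes, compared with 3.81% for all protein-coding genes and 20.1% for the members.

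**Figure D5:**
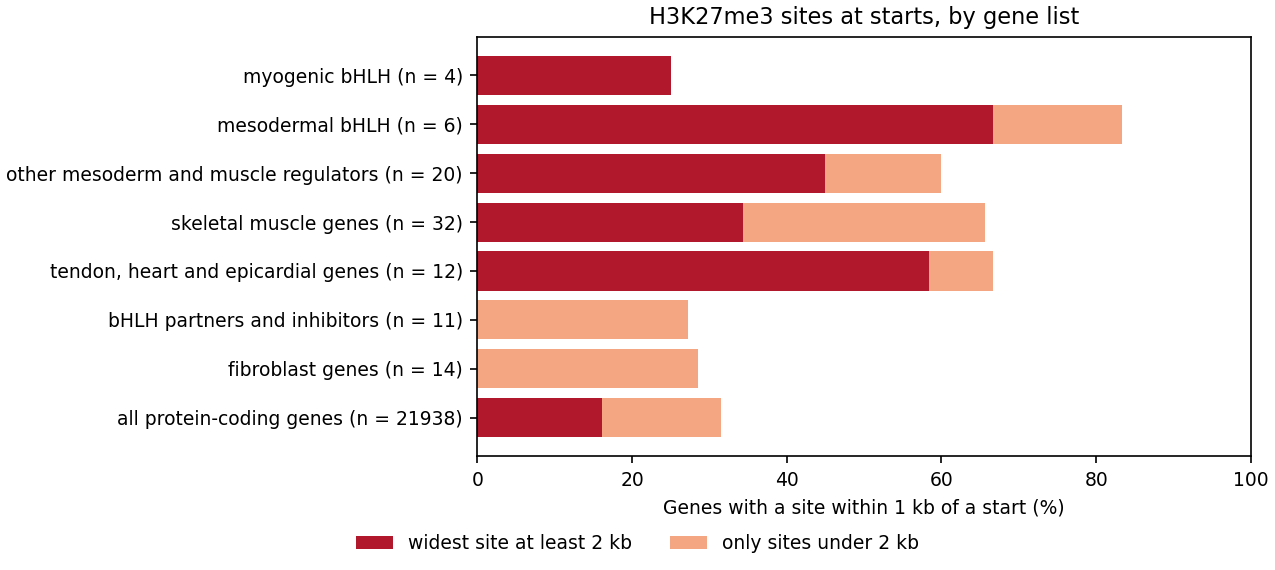
Bars give the percentage of genes in each list with an H3K27me3 site within 1 kb of a start, split into genes whose widest site there is at least 2 kb (red) and genes with narrower sites only. Mesodermal bHLH genes stand at 83.3%, myogenic bHLH genes at 1 of 4, fibroblast genes at 28.6% and all protein-coding genes at 31.5%.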

How the data were processed

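ChIP-seq of H3K27me3 was measured in 12 libraries of iMEF cells, with 2 input libraries. The authors used Trim Galore for trimming, BWA for alignment to mm10 and samtools for filtering, merged replicates with Picard, brought libraries to the lowest coverage and called broad peaks with MACS. Program versions, thresholds and the rule for combining peaks are not given in the sources used here. The deposited list holds positions only, with 0 columns of values per library left unassigned. Starts were read as counted from 0 and are printed as counted from 1.

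Genes and start sites came from GENCODE M21, and sequences and enhancers from RefSeq (GRCm38.p6). No site extended past the end of a chromosome. For each gene, the window of 1 kb around all start sites (merged), the body and 50 kb flanks were scored by any overlap with a site and by covered length, and the same was done for all 21938 protein-coding genes. Copies of the regions were searched with minimap2 2.31 in the 217 sequences outside the assembled chromosomes, not on the chromosomes themselves. The interval code was checked on simulated sites and gave 0 differences from a base-by-base count for 115 genes. Python 3.11.15 with pandas 2.3.3, numpy 2.4.6 and pysam 0.24.0 was used.

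The members and gene lists were chosen with earlier results of these data known. All members are named, with every other protein-coding gene whose window shares a site with theirs (there was none). Non-coding genes were not part of that search. Also named are up to 3 genes with the largest covered share of each list, and genes without a site where these were 5 or fewer. Neighboring genes, the enhancer and further genes of the lists were named after their values were seen. Ties at 100% were cut to examples. Sequences are limited to members with the highest or lowest covered share of the window.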

Additional observations from a re-analysis of the deposited data

How the results depend on the processing

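No paired analysis was possible because single libraries have no values in the list. Leaving out replicates was likewise impossible. The count test between groups, with or without a replicate block, was not run. A change beyond 1.5 times counted as a move. The 6 members with a site in the TSS window were the same genes in the 8 alternatives that bear on that window. Flanks of 100 kb gave 8 members with a flanking site, as Scx then had one, while Myf5 and Myf6 still had none. With flanks of 50 kb it was 7 members, and 85.4% of all genes. The window was covered in full for 3 members with 2 kb on either side and for 6 with sites closer than 5 kb joined. Shares over all genes were computed at the main settings only (5.44% for a window covered in full). Counts under the other settings therefore have no matching background.

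Medians over the 10 members moved as follows. With sites closer than 5 kb joined, the covered share of the gene body was 100%, that of the gene and its flanks 42.5% and the widest site at the start 13656 bp. Joining below 1 kb gave a widest site of 7976 bp. When sites under 1 kb were dropped, the shares were 33.4% and 13.4%, and 31 genes of the companion lists had a site instead of 48. Flanks of 20 kb gave 33.6%. Of 300 values for single genes and lists, 33 moved. The CpG ratio over 1 kb on either side of the start, an alternative chosen after the data had been seen, had a median of 0.505. Peak widths and gaps depend on depth and calling settings that are unknown here.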
